A study of Hordeum vulgare with 6 samples.

Results

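The GATA, YABBY and growth-regulating factor (GRF) families of plant transcription factors were examined in young barley panicles. Members were the genes whose description in the deposited annotation names a GATA transcription factor, a GATA-type or GATA zinc finger, YABBY, a growth-regulating factor or a GRF1-interacting factor (GIF). This rule found 62 of 40411 genes, of which 35 were GATA genes, 7 YABBY genes and 20 genes of the growth-regulating factor group, the last made up of 17 GRF and 3 GIF genes. Panicles of 0.5 to 1 cm, at the glume to lemma primordium stages, came from *msnsd*, a recessive barley mutant with many stem nodes, several spikes per tiller and short stature, and from E934, the feed variety that had been treated with EMS and radioactive cobalt to obtain it. There were 3 biological replicate libraries of *msnsd* and 3 of E934. The *msnsd* group is a single mutant line, so any further mutation left by the treatment is part of the comparison. Whole panicles were sampled, so more cells of one type and more RNA per cell cannot be told apart.

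GATA factors bind DNA through a zinc finger. In Arabidopsis some of them promote chloroplast and chlorophyll formation, and in rice, maize and barley one type holds back bract growth below the spikelets. YABBY proteins, which have a zinc finger and an HMG-like YABBY domain, act in lateral organs such as leaves and floral organs, in Arabidopsis mostly on their abaxial side, and work with co-repressors of the LEUNIG, SEUSS and TOPLESS types. GRF proteins bind DNA through a WRC domain and bind GIF co-activators through a QLQ domain. GIF proteins bring in SWI/SNF chromatin remodelling complexes, and GRF-GIF pairs sustain cell proliferation in young organs.

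Expression was measured in TPM, reads per transcript length scaled to the same total in every library, so levels of different genes can be compared but sequencing depth is unknown. Per library, 33227 to 35537 genes were detected at all. Of the variance, 28.7% lay along a first component that parted *msnsd* from E934, and 23.6% along a second on which replicate 1 of E934 stood away from the other E934 libraries, so counts of members are also given without it. Genes described as MADS-box, knotted-type homeobox or squamosa promoter-binding, used as markers of young inflorescence, summed to 2123 to 2222 TPM in *msnsd* and 2189 to 2240 TPM in E934. Single genes of this list differed in both directions, with 14 of 70 tested higher and 10 lower at an unadjusted p under 0.05 in limma, together 34.3%, against 10.7% of all genes tested, and 1 past the threshold of the study. The part of this difference in the values of the members was not tested. The 109 genes described as chlorophyll-binding, photosystem or Rubisco small subunit summed to 1327 to 1725 TPM in *msnsd* and 1223 to 1607 TPM in E934. Pollen and tapetum genes summed to 122 to 144 TPM in *msnsd* and 140.3 to 155 TPM in E934, and seed storage genes to 117 to 129 TPM in *msnsd* and 100.5 to 138 TPM in E934.

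Genes with a mean of at least 0.1 TPM over the 6 libraries were compared between genotypes with limma on log2(TPM + 0.1), adjusted by Benjamini-Hochberg over all 32968 genes tested. A log2 fold change is *msnsd* over E934 on that scale and understates changes of genes with low TPM. A mean is followed by ± its SD over 3 libraries. Of the 62 members, 60 were tested, and 0 of them were past the threshold of the study, 1.5 or more in either direction on the log2 scale with an adjusted p of at most 0.05, against 0.0485% of all genes tested. At that adjusted p alone the count was also 0 in limma, against 0.0667%. At an unadjusted p under 0.05 in limma, 7 members were higher in *msnsd*, against 5.58% of all genes, and 2 were lower, against 5.09%. The 9 members were 6 GATA genes, all higher, and 3 GRF genes, of which 1 was higher. No YABBY and no GIF gene was among them. Every *msnsd* library lay above every E934 library in 9 of the 60 members, against 8.73% of all genes tested, and below every E934 library in 4, against 7.86%. Among the 51 members with a mean of at least 1 TPM, 6 were higher and 2 lower at an unadjusted p under 0.05, against 6.72% and 5.88% of all genes at that level, and 7 and 3 had no overlap in the same directions, against 9.97% and 8.84%. Fold changes of the 60 members had a median of -0.000199 on the log2 scale, with 30 positive and 30 negative, beside a median of -0.0166 over all genes tested. An unadjusted p under 0.05 was found in all 14 alternative fits for 6 of the 9, the GATA genes 1HG0058390, 2HG0156540, 4HG0416070 and 6HG0627260 and the GRF genes 4HG0368070 and 6HG0606810, named by the last part of their identifiers. The 9 were chosen by p on the same values that these fits reuse, so this is no separate evidence. How many of all genes would hold in the same way was not counted.

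Most members were well expressed. A mean of at least 10 TPM was reached by 38 of the 62, and the median over tested members was 23.6 TPM, beside 5.13 TPM over all genes tested. The most abundant members were the GIF gene 4HG0339920 at 135 TPM, the GATA gene 2HG0184840 at 134 TPM and the GRF genes 7HG0663180 at 125 TPM and 6HG0606810 at 120.5 TPM, as means over the 6 libraries. Short identifiers leave out the first part that all genes share, HORVU.MOREX.r3. In the plot of members among all genes, the members with fold changes beyond 1.5 on the log2 scale all lie under 1 TPM.

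**Figure D1:**
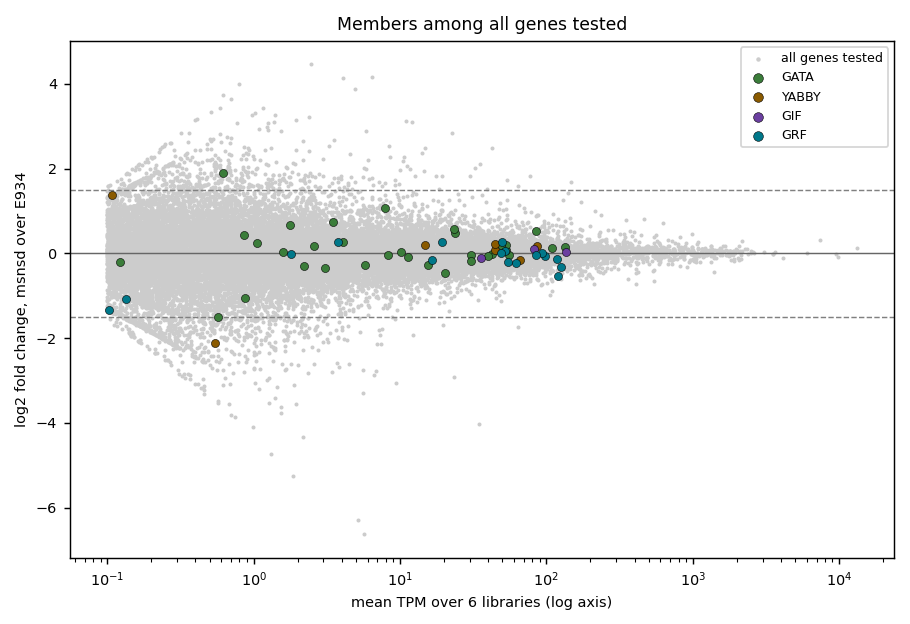
Log2 fold change of *msnsd* over E934 against the mean TPM over the 6 libraries (log axis). Grey points are the 32968 genes tested, coloured points the 60 tested members by family, and dashed lines mark fold changes of 1.5 and -1.5 on the log2 scale. Members with a mean of at least 1 TPM lie between -0.54 and 1.07.

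The largest difference among well-measured GATA genes was in HORVU.MOREX.r3.1HG0058390 (chromosome 1H, 389294036 to 389295670 of the Morex V3 assembly), a gene with 1 annotated GATA zinc finger. It had 10.8, 11.0 and 10.2 TPM in *msnsd* against 3.65, 5.53 and 6.30 TPM in E934. All *msnsd* libraries stood close together above the E934 libraries, and E934 replicate 1 was the lowest. Means were 10.7 ± 0.420 TPM in *msnsd* and 5.16 ± 1.36 TPM in E934 (SD, n = 3), a ratio of 2.07. The log2 fold change was 1.07 (standard error 0.21, 95% interval 0.58 to 1.56), with an unadjusted p of 0.00128 and an adjusted p of 0.143 from limma. A two-sided exact permutation test of the log2(TPM + 0.1) values gave p = 0.1, which is as small as 3 libraries against 3 allow. Without E934 replicate 1 the log2 fold change was 0.85 with a limma adjusted p of 0.0990.

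The smallest p among all members belonged to HORVU.MOREX.r3.2HG0156540 (chromosome 2H, 378632009 to 378632959), described as a GATA transcription factor but a low-confidence gene with no protein domain listed. It had 100.4, 102 and 97.6 TPM in *msnsd* against 66.5, 72.5 and 68.0 TPM in E934. Replicates of each genotype differed by only a few TPM, and the groups were far apart. Its log2 fold change was 0.54 (standard error 0.07, 95% interval 0.38 to 0.70), a ratio of means of 1.45, with an unadjusted p of 9.35e-05 and an adjusted p of 0.0610 from limma. Over the alternatives tried, its adjusted p ran from 0.0514 to 0.321, lowest with a minimum mean of 1 TPM and highest without *msnsd* replicate 3. The RefSeq annotation of the same assembly has a protein-coding gene of 1129 bp over this model.

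HORVU.MOREX.r3.6HG0627260 (chromosome 6H, 546369567 to 546371417), with 1 GATA finger, had 30.6, 25.2 and 27.9 TPM in *msnsd* against 20.1, 19.8 and 16.6 TPM in E934. Its lowest *msnsd* library exceeded its highest E934 library. The difference on the log2 scale was 0.56 ± 0.12 (standard error), and the adjusted p from limma was 0.166. HORVU.MOREX.r3.4HG0416070 (chromosome 4H, 603980345 to 603982486) was a gene of low level, with 3.83, 5.42 and 3.86 TPM in *msnsd* against 2.60, 2.31 and 2.73 TPM in E934. Here *msnsd* replicate 2 was the highest and the other *msnsd* libraries still lay above E934 (log2 fold change 0.74, standard error 0.20, limma adjusted p = 0.282). A gene of still lower level, HORVU.MOREX.r3.7HG0716520 (chromosome 7H, 503891931 to 503893877), had 2.36, 2.48 and 1.71 TPM in *msnsd* against 1.56, 1.41 and 1.05 TPM in E934. Its *msnsd* replicate 3 was just above E934 replicate 1, and the difference was 0.66 ± 0.27 in log2 units (standard error, limma adjusted p = 0.448), with an unadjusted p under 0.05 in 9 of the 14 alternative fits. The sixth GATA gene with an unadjusted p under 0.05, HORVU.MOREX.r3.5HG0529910, described as GATA transcription factor 13, is a low-confidence model of 430 bp with no domain listed and no RefSeq gene over it. It had 0.84, 0.54 and 1.62 TPM in *msnsd* against 0.50, 0.23 and 0 TPM in E934, and the fitted difference of 1.90 ± 0.73 (log2, standard error, limma adjusted p = 0.429) leaned on the pseudocount, being 0.67 with a pseudocount of 1. Its unadjusted p was under 0.05 in 6 of the 14 alternative fits.

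**Figure D2:**
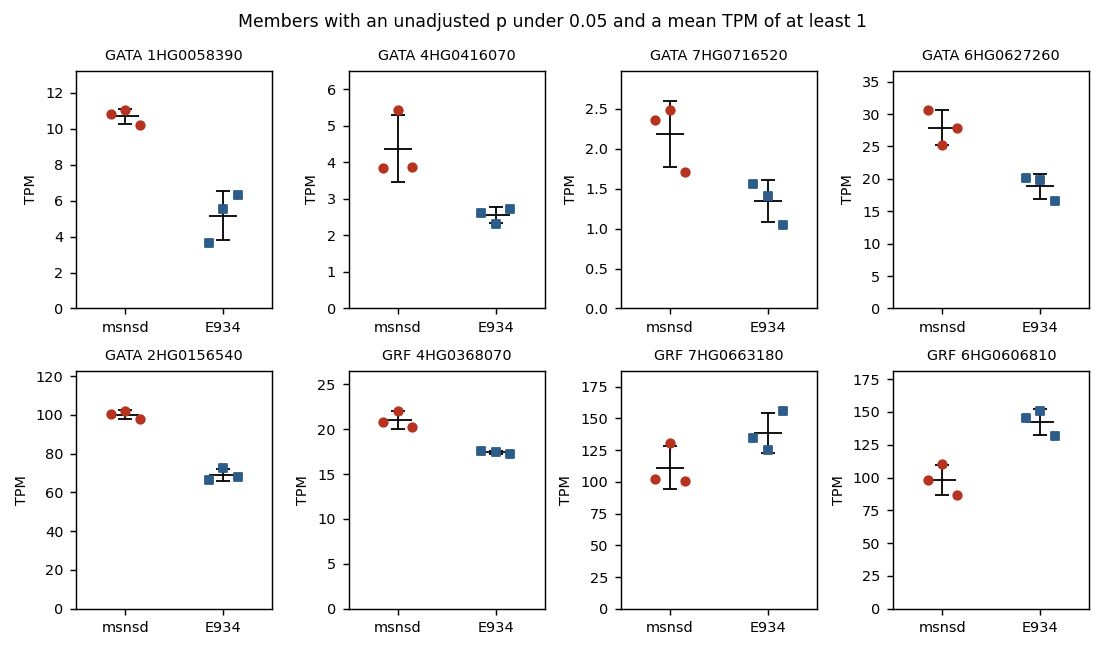
TPM in each library (linear axes from 0) for the 8 members with an unadjusted p under 0.05 in limma and a mean of at least 1 TPM, *msnsd* on the left as circles and E934 on the right as squares. Horizontal bars and whiskers are means and SD of 3 libraries. In 7 of the 8 genes the genotypes do not overlap, the exception being the GRF gene 7HG0663180. The 8 were chosen by p on these same values, so the lack of overlap is no separate evidence. Of all genes at that level, 9.97% lay apart higher and 8.84% lower in *msnsd*.

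Among the other abundant GATA genes, HORVU.MOREX.r3.2HG0184840 had 142, 144 and 138 TPM in *msnsd* against 135, 126 and 121 TPM in E934, the highest level of the family (16.1% of its summed TPM). All of the *msnsd* values exceeded those of E934 by a small margin, with a log2 fold change of 0.15 (95% interval -0.01 to 0.32, limma adjusted p = 0.490), and 0.20 without E934 replicate 1 (unadjusted p = 0.0116, adjusted p = 0.193 from limma). The next in level with a GATA finger, 5HG0528890, had means of 114 ± 13.8 TPM in *msnsd* and 104 ± 12.3 TPM in E934 (SD, n = 3), and its libraries overlapped. The genes 6HG0599190, 1HG0076900 and 1HG0091840 averaged 54.7 ± 7.43 and 51.9 ± 2.26 TPM, 56.4 ± 3.22 and 49.6 ± 4.75 TPM, and 52.3 ± 2.38 and 46.2 ± 6.40 TPM, *msnsd* before E934 in each pair. Their log2 fold changes of 0.07, 0.19 and 0.19 had limma adjusted p of 0.852, 0.516 and 0.587. In 5HG0424280, at 42.1 ± 1.28 and 42.4 ± 3.38 TPM, and in 5HG0454780, at 30.0 ± 0.898 and 30.9 ± 1.34 TPM, which has 3 GATA fingers listed, the genotypes were within 0.05 of each other on the log2 scale, and the 95% intervals ran from -0.21 to 0.19 and from -0.22 to 0.14. HORVU.MOREX.r3.3HG0330940 had 33.3, 27.1 and 22.7 TPM in *msnsd* against 26.0, 16.4 and 17.7 TPM in E934. E934 replicate 1 lay among its *msnsd* libraries and the other E934 libraries lay below them (log2 fold change 0.48, standard error 0.21, limma adjusted p = 0.475). Without E934 replicate 1 this was 0.68 (limma adjusted p = 0.181).

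The GATA genes with a finger and a lower level gave smaller or less certain differences. Means were 10.3 ± 1.28 TPM in *msnsd* and 10.1 ± 1.09 TPM in E934 (SD, n = 3) for 4HG0407380, and 8.15 ± 0.629 and 8.38 ± 1.30 TPM for 3HG0277700. For 2HG0185510, which lies over a RefSeq transcribed pseudogene, they were 4.43 ± 0.563 and 3.70 ± 0.742 TPM, and for 2HG0217760 they were 2.75 ± 0.272 and 2.43 ± 0.215 TPM, with *msnsd* given first. The limma adjusted p of these 4 genes ran from 0.667 to 0.962. HORVU.MOREX.r3.3HG0288270 had 2.54, 1.70 and 1.76 TPM in *msnsd* against 2.64, 2.41 and 2.27 TPM in E934, with overlap in *msnsd* replicate 1. In 1HG0023970 the E934 libraries alone spanned 0.20, 2.52 and 0.69 TPM, against 1.46, 0.77 and 0.64 TPM in *msnsd*, and no direction can be read (95% interval of the log2 fold change -1.60 to 2.06).

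GATA proteins that also carry TIFY and CCT domains form a class of their own in plants, known as ZIM-type factors. All 4 such genes had a negative log2 fold change, from -0.34 to -0.05, though 6HG0559190 turned to 0.06 without E934 replicate 1. At an unadjusted p under 0.05 in limma there were 0 of the 4, against 10.7% of all genes tested. The lowest member of this class, HORVU.MOREX.r3.4HG0340090 (chromosome 4H, 28519563 to 28523383), had 2.21, 3.23 and 2.76 TPM in *msnsd* against 3.40, 3.62 and 3.34 TPM in E934, and every *msnsd* library lay below every E934 library (limma adjusted p = 0.567). HORVU.MOREX.r3.4HG0334570 (chromosome 4H, 9352554 to 9356098) had 14.7, 14.1 and 13.2 TPM in *msnsd* against 19.1, 16.8 and 15.1 TPM in E934. Its groups were also apart, by -0.27 ± 0.12 in log2 units (standard error, unadjusted p = 0.0538, adjusted p = 0.475 from limma). The 2 abundant genes of the class overlapped between genotypes, 7HG0728220 at 39.1 ± 2.14 and 41.0 ± 2.30 TPM and 6HG0559190 at 54.9 ± 3.63 and 57.0 ± 7.82 TPM in *msnsd* and E934. Over the 20 genes with a GATA finger and neither of these domains the median log2 fold change was 0.18, and 6 of the 20 had every *msnsd* library above every E934 library, against 8.73% of all genes tested. The difference between the classes was not tested.

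Some genes described as GATA factors have no GATA finger in the file. The description calls 3HG0300480 and 3HG0300410 GATA zinc finger proteins, yet the domain listed for both is PF07247, an alcohol acetyltransferase domain, with no finger. The first had 11.1 ± 0.923 and 11.7 ± 0.598 TPM in *msnsd* and E934 (limma adjusted p = 0.819), and the second did not reach 0.1 TPM. No domain is listed for 9 more. Besides 2HG0156540 and 5HG0529910 these include 7HG0728200, described as GATA transcription factor 27, with 20.1, 13.3 and 17.2 TPM in *msnsd* against 19.4, 29.9 and 21.1 TPM in E934 (log2 fold change -0.47, standard error 0.21, limma adjusted p = 0.476), and without E934 replicate 1 the value was -0.59 (unadjusted p = 0.0456, adjusted p = 0.307 from limma). Its *msnsd* replicate 1 lay among the E934 values, and it is 1 annotated gene away from the TIFY-CCT gene 7HG0728220. The others with a mean of at least 1 TPM were 3HG0254630 at 28.2 ± 4.99 and 32.4 ± 8.30 TPM, a model of 204 bp inside a RefSeq lncRNA, 6HG0632640 at 5.18 ± 1.11 and 6.34 ± 1.91 TPM and 3HG0269230 at 1.65 ± 0.565 and 1.55 ± 0.142 TPM, *msnsd* before E934, with limma adjusted p from 0.737 to 0.979. Of the 35 GATA genes, 7 had a mean under 1 TPM, and 2 of these, 3HG0300410 and 2HG0217770, were not tested. The gene 6HG0579890, which has a GATA finger, had 1.00, 1.11 and 0.88 TPM in *msnsd* against 0.73, 0.86 and 0.58 TPM in E934 without overlap (limma adjusted p = 0.643). In 4HG0347500, 5HG0506660 and 4HG0347200 the libraries overlapped. Over the 33 GATA genes tested the median log2 fold change was 0.03, and it ran from -0.03 to 0.11 when single libraries were left out. In limma 6 of the 33 were higher and 0 lower at an unadjusted p under 0.05, against 5.58% and 5.09% of all genes tested. The higher count was 4 to 8 when single libraries were left out. It was 4 of 27 among high-confidence GATA genes (14.8%), and 4 with members chosen by protein domain. Without E934 replicate 1 it was 8, with 2HG0184840 and 3HG0330940 added, and 1 gene was lower, 7HG0728200, against 7.85% and 7.80% of all genes in that fit. Without *msnsd* replicate 1 there were 3 lower, 7HG0728200, 4HG0347500 and 5HG0506660, against 5.33% of all genes in that fit.

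**Figure D3:**
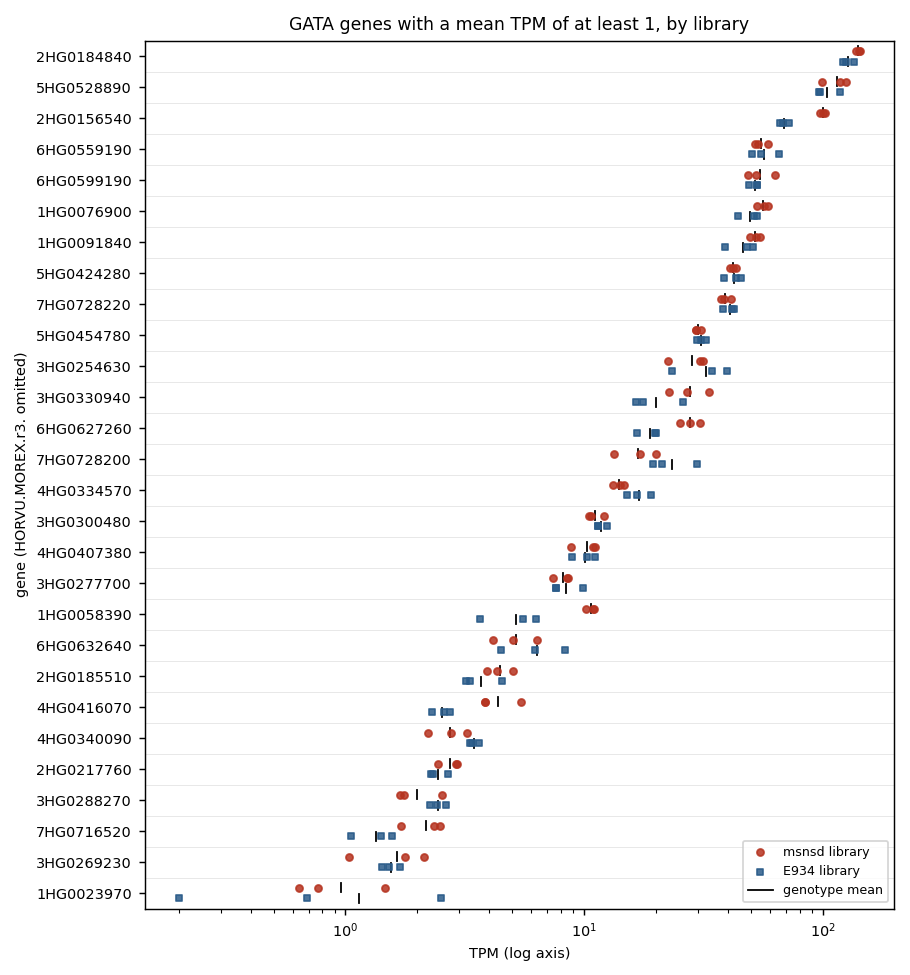
TPM (log axis) of the 28 GATA genes with a mean of at least 1 TPM, ordered by mean, with *msnsd* libraries as circles above E934 libraries as squares in each row and genotype means as vertical ticks. Levels span from about 1 TPM in 1HG0023970 to 134 TPM in 2HG0184840, and most rows overlap between genotypes.

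Genes with descriptions of chlorophyll synthesis, a pathway that GATA factors regulate in Arabidopsis, were followed as a list. Some are described as subunits of a light-independent protochlorophyllide reductase, among them low-confidence models such as 2HG0115980 and 6HG0586940. Whether the genes of the list act in this pathway in barley, or are GATA targets there, was not tested. Of 47 genes matched, 41 were tested with limma, 0 were past the threshold, and at an unadjusted p under 0.05 there were 4 higher (9.76%) and 2 lower (4.88%) in *msnsd*, against 5.58% and 5.09% of all genes tested. Their median log2 fold change was 0.04. The smallest p was that of HORVU.MOREX.r3.2HG0209470, a protochlorophyllide reductase, the enzyme of the light-dependent step of chlorophyll synthesis, with 1.55, 2.15 and 3.08 TPM in *msnsd* against 0.15, 0.19 and 0.24 TPM in E934 (log2 fold change 2.97, standard error 0.37, limma adjusted p = 0.0610). All 3 *msnsd* libraries were above all E934 libraries. HORVU.MOREX.r3.6HG0576000, a low-confidence model of 300 bp described as a magnesium chelatase subunit, had 6.41, 8.14 and 8.11 TPM in *msnsd* against 3.46, 3.16 and 1.81 TPM in E934 (log2 fold change 1.44, limma adjusted p = 0.133), again with no overlap. In the other direction, HORVU.MOREX.r3.5HG0441980 had 1105, 1262 and 1139 TPM in *msnsd* against 1287, 1620.0 and 1952 TPM in E934 (log2 fold change -0.45, limma adjusted p = 0.380). It is a model of 857 bp described as glutamate-1-semialdehyde aminomutase, an enzyme at an early step of tetrapyrrole synthesis. Longer models with this description went either way, such as 7HG0713520 at 0.15 and 7HG0743440 at -0.22, both with overlapping libraries.

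YABBY transcripts were abundant, and the libraries of the genotypes overlapped in each of the 7 genes. Of all genes tested, 16.6% had no overlap. The group summed to 286, 262 and 243 TPM in *msnsd* against 277, 253 and 222 TPM in E934. Of 7 genes, 5 had a mean of at least 10 TPM, all 5 with a YABBY domain listed. An unadjusted p under 0.05 in limma was found in 0 of the 7, against 10.7% of all genes tested. With only 7 genes, neither count can be told apart from these shares. The most abundant, HORVU.MOREX.r3.6HG0598850 (chromosome 6H, 396619328 to 396622494), made up 33.7% of the summed TPM and had 103, 87.2 and 85.7 TPM in *msnsd* against 90.8, 79.2 and 73.4 TPM in E934. Its highest E934 library lay between its *msnsd* libraries, and the log2 fold change was 0.18 (95% interval -0.08 to 0.44, limma adjusted p = 0.584). HORVU.MOREX.r3.2HG0184460 (chromosome 2H, 569402011 to 569403944) had 69.2, 61.4 and 55.9 TPM in *msnsd* against 69.3, 74.2 and 65.4 TPM in E934, and was the only abundant YABBY gene with a negative value (-0.17, 95% interval -0.40 to 0.07, limma adjusted p = 0.573).

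HORVU.MOREX.r3.5HG0507700 had 45.2, 48.0 and 44.3 TPM in *msnsd* against 49.3, 45.6 and 36.1 TPM in E934, with E934 replicates on both sides of *msnsd* (log2 fold change 0.08, 95% interval -0.21 to 0.37, limma adjusted p = 0.846). In HORVU.MOREX.r3.1HG0049220, with 52.5, 46.9 and 43.0 TPM in *msnsd* against 53.7, 38.0 and 32.3 TPM in E934, E934 replicate 1 was the highest of all libraries and the other E934 libraries were the lowest. Its log2 fold change was 0.23 (95% interval -0.21 to 0.66, limma adjusted p = 0.697), and without E934 replicate 1 it was 0.43 (limma adjusted p = 0.202). HORVU.MOREX.r3.5HG0425660, the lowest of the 5, had 15.5, 18.4 and 13.9 TPM in *msnsd* against 12.2, 15.4 and 13.6 TPM in E934 (log2 fold change 0.21, 95% interval -0.13 to 0.54, limma adjusted p = 0.633). The 95% intervals of these 5 genes lie within 1 log2 unit either way. The other YABBY members were near the limit of detection. HORVU.MOREX.r3.2HG0132870, with a YABBY domain, was listed at 0 in each E934 library and at 0.37, 0.28 and 0 TPM in *msnsd*. HORVU.MOREX.r3.5HG0534830, a low-confidence model of 306 bp without a listed domain, had 0, 0 and 0.55 TPM in *msnsd* against 1.78, 0.27 and 0.68 TPM in E934, with overlapping libraries (limma adjusted p = 0.475). Without E934 replicate 1, an unadjusted p under 0.05 was reached by 2 YABBY genes, 6HG0598850 and 1HG0049220, both higher in *msnsd*, against 7.85% of all genes on that side in the same fit and 5.58% with all 6 libraries.

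A YABBY domain is also listed for HORVU.MOREX.r3.4HG0396510, described as CRABS CLAW, a carpel and nectary regulator in Arabidopsis whose rice relative acts in the carpel and the leaf midrib. It falls outside the description rule. It had 62.2, 58.9 and 54.3 TPM in *msnsd* against 83.3, 56.8 and 54.4 TPM in E934, where E934 replicate 1 was far above the rest (log2 fold change -0.12, 95% interval -0.51 to 0.27, limma adjusted p = 0.817).

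The co-repressors that work with YABBY proteins were followed by the descriptions LEUNIG, SEUSS and TOPLESS, while KANADI matched no description. Of 25 genes matched, 24 were tested with limma, 0 were past the threshold, and at an unadjusted p under 0.05 there were 0 higher and 2 lower (8.33%) in *msnsd*, against 5.58% and 5.09% of all genes tested. Their median log2 fold change was -0.04. Of these 2, the SEUSS gene HORVU.MOREX.r3.4HG0346180 had 14.2, 12.8 and 14.6 TPM in *msnsd* against 17.9, 18.6 and 15.4 TPM in E934 with no overlap (log2 fold change -0.31, standard error 0.11, limma adjusted p = 0.391). The genes numbered next to it, 4HG0346170 and 4HG0346190, are also described as SEUSS and had log2 fold changes of -0.02 and 0.12. Whether these genes share reads was not tested. The other, HORVU.MOREX.r3.6HG0613780, is a low-confidence model of 451 bp described as TOPLESS that lies over a RefSeq pseudogene. It was listed at 0 in each *msnsd* library and at 0.35, 0.32 and 0.20 TPM in E934 (limma adjusted p = 0.242). Another low-confidence TOPLESS model of 451 bp, 2HG0151530, had 0.59, 0.93 and 0 TPM in *msnsd* and was listed at 0 in each E934 library (limma adjusted p = 0.479). Both are near the limit of detection. The single gene matched among adaxial HD-ZIP III factors, 2HG0166000, is described as putative HOX9. It is a model of only 279 bp over a RefSeq protein-coding gene of 1440 bp, and its description was not checked. It averaged 186 ± 6.45 TPM in *msnsd* and 203 ± 35.3 TPM in E934 (SD, n = 3), with a limma adjusted p of 0.766.

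GRF genes were the most abundant of the families. With the GIF genes they summed to 1199, 1181 and 1085 TPM in *msnsd* against 1384, 1174 and 1185 TPM in E934. E934 replicate 1 was the highest library and the other E934 libraries lay among those of *msnsd*. Both QLQ and WRC domains are listed for 12 of the 17 GRF genes, and 5 have a WRC domain alone. Of the 12, 11 had means over the 6 libraries from 19.2 to 120.5 TPM, and 7 of these 11 had a negative log2 fold change. The median of the 11 was -0.04 with all libraries and 0.08 without E934 replicate 1, so its sign depended on that library. Over all 20 genes of the group the median log2 fold change was -0.05, with 7 positive and 13 negative, and -0.13 to -0.02 when single libraries were left out. Over the 18 with a mean of at least 1 TPM it was -0.03, and 0.03 without E934 replicate 1.

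The clearest difference was in HORVU.MOREX.r3.6HG0606810 (chromosome 6H, 459669477 to 459672465), a GRF with both domains. It had 98.1, 109.9 and 87.0 TPM in *msnsd* against 145, 151 and 132 TPM in E934. The highest *msnsd* library was well below the lowest E934 library. Means were 98.3 ± 11.5 TPM in *msnsd* and 143 ± 9.96 TPM in E934 (SD, n = 3), a ratio of 0.690. The log2 fold change was -0.54 (standard error 0.10, 95% interval -0.79 to -0.29), with an unadjusted p of 0.00124 and an adjusted p of 0.142 from limma. The two-sided exact permutation p was again 0.1. Over the alternatives its adjusted p ran from 0.122 to 0.425. HORVU.MOREX.r3.4HG0368070 (chromosome 4H, 265447781 to 265474507), also with both domains, differed the other way, with 20.8, 22.1 and 20.2 TPM in *msnsd* against 17.6, 17.4 and 17.2 TPM in E934. The E934 libraries were nearly identical and all *msnsd* libraries lay above them (log2 fold change 0.27, standard error 0.08, unadjusted p = 0.0145, adjusted p = 0.338 from limma).

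The third GRF gene with an unadjusted p under 0.05, HORVU.MOREX.r3.7HG0663180 (chromosome 7H, 73657772 to 73658035), is a low-confidence model of 264 bp with a WRC domain alone, inside a RefSeq protein-coding gene of 1938 bp. It had 102, 131 and 101 TPM in *msnsd* against 135, 125 and 156 TPM in E934, and *msnsd* replicate 2 lay above the lowest E934 library (log2 fold change -0.32, standard error 0.13, limma adjusted p = 0.449). Its unadjusted p was under 0.05 in 7 of the 14 alternative fits, and not without E934 replicate 1. HORVU.MOREX.r3.2HG0193490 had 61.1, 51.4 and 58.8 TPM in *msnsd* against 69.9, 70.1 and 60.4 TPM in E934, where *msnsd* replicate 1 was just above E934 replicate 3 and the others did not overlap (log2 fold change -0.23, standard error 0.10, limma adjusted p = 0.475).

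**Figure D4:**
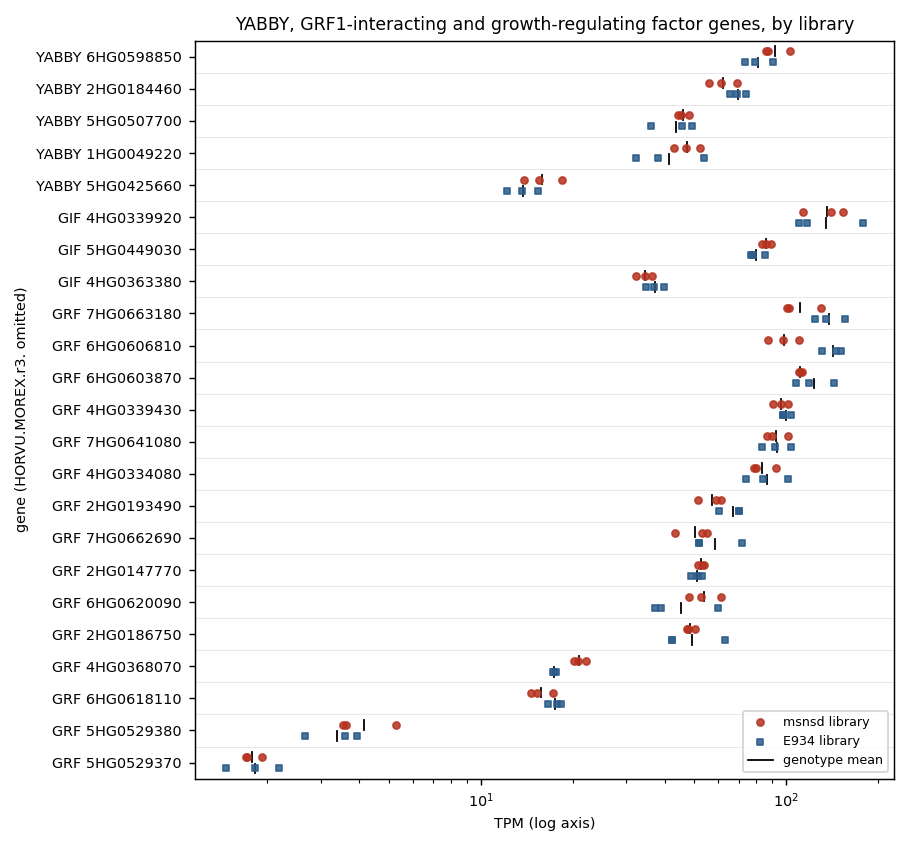
TPM (log axis) of the 5 YABBY, 3 GIF and 15 GRF genes with a mean of at least 1 TPM, with *msnsd* libraries as circles above E934 libraries as squares in each row and genotype means as vertical ticks. The rows of 6HG0606810 and 4HG0368070 are free of overlap between genotypes.

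The other GRF genes with both domains overlapped between genotypes. HORVU.MOREX.r3.6HG0603870 averaged 111 ± 1.35 TPM in *msnsd* and 123 ± 18.7 TPM in E934 (SD, n = 3). The 3 genes next in level, 4HG0339430, 7HG0641080 and 4HG0334080, averaged 96.2 ± 5.47 and 99.9 ± 3.75 TPM, 92.8 ± 7.54 and 93.2 ± 10.4 TPM, and 83.6 ± 7.72 and 86.6 ± 14.1 TPM, *msnsd* before E934, with 95% intervals of the log2 fold change of -0.23 to 0.12, -0.25 to 0.24 and -0.35 to 0.26. In 2HG0147770 the replicates were tight, at 53.9, 51.6 and 53.0 TPM in *msnsd* against 53.2, 48.8 and 51.4 TPM in E934, and the interval was -0.12 to 0.21 (limma adjusted p = 0.836). A single E934 library stood apart in 3 genes. HORVU.MOREX.r3.7HG0662690 had 52.9, 54.9 and 43.2 TPM in *msnsd* against 71.6, 51.8 and 51.8 TPM in E934, 2HG0186750 had 47.8, 50.3 and 47.2 TPM in *msnsd* against 62.9, 42.2 and 42.5 TPM in E934, and 6HG0620090 had 61.2, 52.6 and 47.9 TPM in *msnsd* against 59.7, 39.1 and 37.3 TPM in E934. In each, E934 replicate 1 was far above the other E934 libraries, which were close to each other. Their log2 fold changes were -0.20, 0.00 and 0.27 (limma adjusted p = 0.673, 0.997 and 0.637).

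E934 replicate 1 was the highest E934 library in 12 of the 18 GRF and GIF genes with a mean of at least 1 TPM (66.7%), beside 32.7% of all genes at that level, in 3 of 5 YABBY genes and in 13 of 28 GATA genes. Without it, 4 genes of the GRF group had an unadjusted p under 0.05 in limma on the higher side and 2 on the lower side, in place of 1 and 2. The shares over all genes also grew, to 7.85% higher and 7.80% lower, against 5.58% and 5.09% with all 6 libraries. The 4 were 6HG0620090 (log2 fold change 0.49, adjusted p = 0.163), 2HG0186750 (0.19, adjusted p = 0.242), 4HG0368070 (0.27, adjusted p = 0.210) and the GIF gene 5HG0449030 (0.16, adjusted p = 0.283). The 2 lower were 6HG0606810 (-0.53, adjusted p = 0.160) and 5HG0502290 (-1.99, limma adjusted p = 0.165). The last is near the limit of detection, with 0 TPM in each *msnsd* library and 0.41 and 0.21 TPM in the E934 libraries kept. Its log2 fold change with all libraries and a pseudocount of 1 was -0.26. The part of this library in the group's values beyond these numbers was not tested.

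The GRF genes with a WRC domain alone were mostly low. HORVU.MOREX.r3.6HG0618110, described as growth-regulating factor 9, had 14.6, 15.3 and 17.2 TPM in *msnsd* against 18.3, 17.7 and 16.6 TPM in E934 (log2 fold change -0.16, 95% interval -0.40 to 0.08, limma adjusted p = 0.6001). The adjacent genes 5HG0529370 and 5HG0529380, 6472 bp apart on chromosome 5H with no annotated gene between them, had means of 1.78 ± 0.122 and 1.83 ± 0.360 TPM and of 4.14 ± 0.977 and 3.40 ± 0.662 TPM in *msnsd* and E934, with limma adjusted p of 0.982 and 0.710. HORVU.MOREX.r3.5HG0502290 was listed at 0 in each *msnsd* library and at 0, 0.41 and 0.21 TPM in E934. The remaining gene, 6HG0575870, has both domains but was barely detected, with 0.07, 0 and 0.08 TPM in *msnsd* against 0.13, 0.35 and 0.18 TPM in E934. Its groups did not overlap, and its limma adjusted p was 0.518.

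All 3 GIF genes carry the SSXT domain of this co-activator family and were well expressed. HORVU.MOREX.r3.4HG0339920 (chromosome 4H, 28155932 to 28159319) had 153, 140.2 and 114 TPM in *msnsd* against 178, 110.0 and 117 TPM in E934. Its highest and lowest libraries were both from E934, and its log2 fold change was 0.03 (95% interval -0.44 to 0.50). HORVU.MOREX.r3.5HG0449030 (chromosome 5H, 154575892 to 154582716) had 85.8, 89.0 and 83.3 TPM in *msnsd* against 85.1, 76.5 and 77.7 TPM in E934, with a log2 fold change of 0.11 (95% interval -0.06 to 0.28). HORVU.MOREX.r3.4HG0363380 (chromosome 4H, 217502347 to 217510842) had 32.3, 36.3 and 34.6 TPM in *msnsd* against 34.7, 39.7 and 36.9 TPM in E934, with a log2 fold change of -0.11 (95% interval -0.31 to 0.10). Adjusted p from limma was 0.618 to 0.966 over the 3 genes.

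Genes whose description names SWI/SNF, the type of complex that GIF proteins bring to DNA, were followed as a list. The genes 3HG0275090, 7HG0681190 and 3HG0276770 are described only as SWI/SNF-related and not as parts of the complex. Their log2 fold changes were -0.27, -0.75 and -0.24. The names BRAHMA and SNF5, also searched for, matched no tested gene. Of 14 genes matched, 11 were tested with limma, and 0 were past the threshold. At an unadjusted p under 0.05 there were also 0, against 10.7% of all genes tested. Their median log2 fold change was -0.19, with 9 of 11 negative, and -0.04 over the 8 with a mean of at least 1 TPM, beside -0.02 and -0.01 over all genes of those levels. The one with the smallest p, HORVU.MOREX.r3.4HG0338230, a SWI3D subunit, had 23.6, 24.7 and 23.7 TPM in *msnsd* against 26.7, 30.5 and 26.2 TPM in E934, with every *msnsd* library below every E934 library (log2 fold change -0.21, standard error 0.09, limma adjusted p = 0.472).

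**Figure D5:**
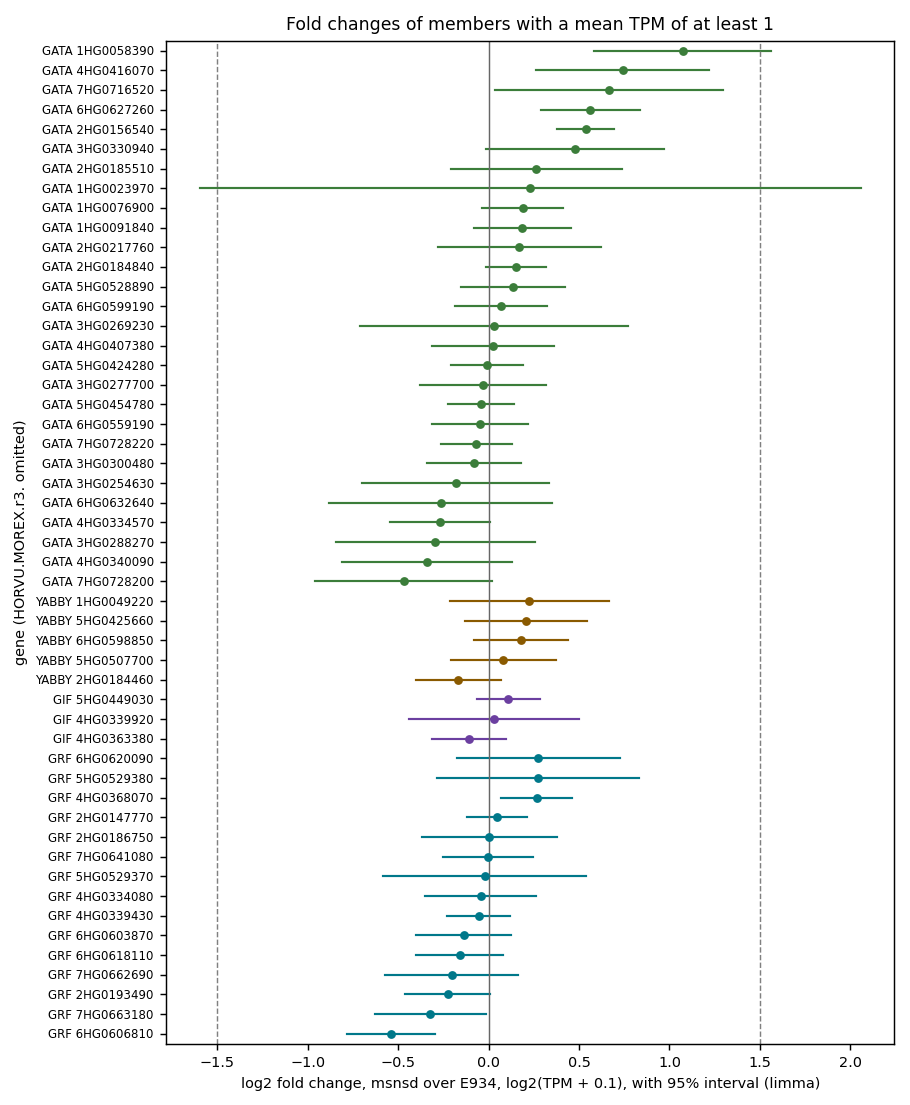
Log2 fold change of *msnsd* over E934 for the 51 members with a mean of at least 1 TPM, as points with 95% intervals from limma, coloured by family and ordered by value within it. Dashed lines mark 1.5 and -1.5. The intervals of 5 GATA and 3 GRF genes leave out 0, and those of all 5 YABBY and all 3 GIF genes include it. Leaving out 0 is the same call as an unadjusted p under 0.05 in limma. Of all genes at that level, 6.72% met it on the higher side and 5.88% on the lower side. The difference between families was not tested.

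The intervals show how large a difference these libraries could have missed. For members with a mean of at least 1 TPM, the 95% interval lay within 1 log2 unit either way in 24 of 28 GATA genes, 5 of 5 YABBY genes and 18 of 18 genes of the GRF group. GATA genes summed to 896, 876 and 836 TPM in *msnsd* against 827, 792 and 764 TPM in E934, so all *msnsd* sums lay above all E934 sums. The genes 2HG0156540, a low-confidence model with no domain listed, and 2HG0184840 had the largest mean differences, at 31.1 and 14.0 TPM. High-confidence GATA genes alone summed to 760, 749 and 704 TPM in *msnsd* against 723, 676 and 669 TPM in E934, which overlap. Sums of the 20 genes with a GATA finger and neither TIFY nor CCT domain did not overlap. They were 612, 606 and 563 TPM in *msnsd* against 556, 515 and 517 TPM in E934. Replicates of the GATA genes had a median coefficient of variation of 11.0% in *msnsd* and 10.5% in E934, and those of the GRF group 8.35% and 11.4%, beside 9.66% and 13.7% over all genes with a mean of at least 1 TPM. Members lay on all 7 chromosomes, with 5 on 1H, 10 on 2H, 7 on 3H, 11 on 4H, 12 on 5H, 11 on 6H and 6 on 7H. A RefSeq protein-coding gene overlapped 53 of the 62, and the 5 members with no RefSeq gene over them all had means under 1 TPM.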

How the data were processed

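RNA from young panicles was sequenced in 3 *msnsd* and 3 E934 libraries (NEBNext Ultra kit). Per the study's methods and the submitters' processing notes, the authors cleaned reads with fastp, quantified transcripts with Salmon 1.9.0 against the Morex V3 annotation and deposited TPM values per gene, TPM being reads per transcript length scaled to the same total in each library, which keeps no sequencing depth. Groups came from the sample labels, and the number of single-library columns set aside was 0. The deposited table also holds columns of the authors' own comparison, with fold changes and p-values, which were not used.

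Members were found by description, and their lists, like the marker and pathway lists, were chosen with earlier results of these data known. Genes averaging 0.1 TPM or more were tested on log2(TPM + 0.1) with limma 3.58.1 in R 4.3.3 (empirical Bayes with a mean-variance trend, no covariates) with Benjamini-Hochberg adjustment over 32968 genes. Single genes were also compared on log2(TPM + 0.1) with an exact two-sided permutation test in scipy 1.17.1. P-values refer to these libraries only. In limma a difference is weighed against a spread between libraries that is drawn toward the trend over all genes tested. Without that trend the unadjusted limma p of 2HG0156540 was 0.00191, against 9.35e-05 with it. Named genes were every YABBY, GRF and GIF member, GATA members with a mean of at least 1 TPM and any other member with an unadjusted p under 0.05. Other GATA genes named under 1 TPM, the pathway genes and the gene described as CRABS CLAW were chosen after their values were seen. Models of RefSeq on this assembly were matched by position. The fit was first tested on simulated data. Alternatives were pseudocounts of 1 and 0.01, other filters, scalings, variance models, fold thresholds and member rules, a replicate block, and each library left out. Same-numbered libraries did not deviate together (correlations 0.0186, -0.160 and 0.0730), so the numbers were not taken as pairs.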

Additional observations from a re-analysis of the deposited data

How the results depend on the processing

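No member was past the threshold under any alternative, but in 7 of the 14 alternative fits, those with a replicate block or a library left out, 0 of all genes were, so these say nothing of the members. In the other fits 11 to 30 of all genes were past it, against 16. Of 779 alternative fold changes of the 56 named genes, 747 kept their direction. The 32 that turned belonged to 13 genes with log2 fold changes of at most 0.231 in size. Counts of genes at an unadjusted p under 0.05 were small and moved. GATA genes higher numbered 6, against 4 among high-confidence genes, 4 with members chosen by Pfam domain and 4 to 8 with single libraries left out. GATA genes lower numbered 0, against 2 with median-of-ratios scaling, 1 with no filter, 1 with quantile normalization and 0 to 3 with single libraries left out. YABBY genes higher numbered 0, and 0 to 2 with single libraries left out, and YABBY genes lower 0, against 1 with a pseudocount of 0.01 and 0 to 1 with single libraries left out. Genes of the GRF group higher numbered 1, and 1 to 4 with single libraries left out, and those lower 2, against 3 with no filter, 3 with members chosen by Pfam domain, 1 among high-confidence genes and 1 to 2 with single libraries left out. With a replicate block, these counts were 1 GATA gene lower, 1 YABBY gene higher, and 2 genes of the GRF group higher and 1 lower, with 0 members past the threshold. Over all 32968 genes tested, 3517 had an unadjusted p under 0.05 in either direction in the main fit. The number was 3739 with median-of-ratios scaling, 3823 with quantile normalization, 3459 with a pseudocount of 0.01 and 3525 with a replicate block. It was 2294 to 5159 with single libraries left out, and 3828 of 40411 genes with no filter. The median log2 fold change of GATA genes was 0.03, against 0.10 with members chosen by Pfam domain and -0.0283 to 0.106 with single libraries left out, and that of the GRF group -0.05, against -0.131 to -0.0177. The direction turned in 5HG0424280 (0.000348) and 7HG0641080 (0.00589) with median-of-ratios scaling and in 5HG0529370 (0.000940) with quantile normalization. With single libraries left out, fold changes ran from -0.130 to 0.0605 in 6HG0559190, -0.0373 to 0.150 in 6HG0599190, -0.0735 to 0.0398 in 5HG0424280, -0.0605 to 0.131 in 4HG0407380, -0.0955 to 0.0916 in 3HG0277700, -0.176 to 0.317 in 3HG0269230, -0.523 to 1.04 in 1HG0023970, -0.0992 to 0.248 in 4HG0339920, -0.0804 to 0.0794 in 7HG0641080, -0.150 to 0.0797 in 4HG0334080, -0.0938 to 0.193 in 2HG0186750, -0.159 to 0.113 in 5HG0529370 and -0.0501 to 0.174 in 5HG0507700. The cause was not tested. With 3 libraries a genotype and depth unknown, small differences and genes under 1 TPM are the least certain.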
